A study of Mus musculus with 24 samples.

Results

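The S100-fused protein genes filaggrin (Flg), filaggrin 2 (Flg2), hornerin (Hrnr), repetin (Rptn), trichohyalin-like 1 (Tchhl1) and cornulin (Crnn) were followed in RNA-Seq counts from mouse embryo skin at embryonic day 18.5 (E18.5). They were taken by symbol from a fixed list of this gene family, and all 6 were found among the 54087 gene symbols counted. Of the 6, 5 were expressed above the low count filter and were tested together with the rest of the 17094 genes that passed it, while Tchhl1 was too low. Rptn was the member that rose in skin without desmoglein 1, about 10.5-fold over WT. Flg was 1.62-fold higher without passing the threshold, Hrnr and Flg2 differed little, and both were lower relative to Flg. No member was called in skin with 1 copy of the desmoglein 1 cluster.

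S100-fused proteins join a calcium-binding S100 domain to a long run of repeats and are made in the last living layers of stratified epithelia. Their genes lie side by side in the epidermal differentiation complex. Profilaggrin, the product of Flg, is stored in keratohyalin granules and cut into filaggrin units, which pack keratin filaments and are later broken down to amino acids that hold water in the stratum corneum. Flg2 and Hrnr encode large repeat proteins of the same upper layers, Rptn an envelope precursor also known from the hair follicle and tongue, Crnn a protein best known from oral and esophageal epithelium, and Tchhl1 a relative of trichohyalin, the structural protein of the inner root sheath.

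The mice carried a deletion of the tandem Dsg1c, Dsg1a and Dsg1b genes, made by genome editing in C57BL/6J zygotes and carried on from a single founder by backcrossing. WT skin had both copies of the cluster, HET skin 1 copy and KO skin none, and no drug or other treatment was given to any group. Dorsal skin of E18.5 embryos of both sexes was frozen whole, so dermis, muscle and blood were in every sample, and in such bulk RNA fewer cells of a type and less RNA per cell cannot be told apart. Each genotype had 8 libraries. Libraries with the same title number and genotype were summed, which gave 5 samples per genotype, named here replicates 1 to 5 by ascending title number. The labels do not say that a title number is an animal, so p-values measure the spread between these samples.

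The 24 libraries held between 8.98 M and 20.96 M counts (M, mega), and the samples 19.46 to 33.68 M in WT, 15.28 to 29.81 M in HET and 20.73 to 33.6 M in KO. The summed Dsg1 genes stood at 806 ± 112 CPM in WT, where CPM is the count scaled to mega counts of the adjusted library size. They were at 422 ± 51.5 CPM in HET skin and at 0.548 ± 0.343 CPM in KO skin (SD, n = 5 each). Keratinocyte markers of the basal, spinous and granular layers were present in every genotype. The spinous list (Krt1, Krt10, Krt2, Dsc1, Sbsn, Krtdap) summed to 60404 ± 8311 CPM in WT skin (49791 to 71410.4), 59065 ± 6278 CPM in HET skin and 73061 ± 10713 CPM in KO skin (64656 to 91745). A pair of samples stood apart. The 2 libraries of WT replicate 2 went against each other in sex genes, with summed Y-linked genes at 325 CPM in the first and 0.155 CPM in the second. KO replicate 4 had a summed level of 399.6 CPM of periderm and oral epithelium markers (Krt4, Krt13, Krt8, Krt18, Krt19, Krt6a), against 10.3 to 22.4 CPM in the 14 other samples. Values without each of these are given below for the differences of Rptn, Flg and Crnn between KO and WT. For the ratios to Flg a bound on the adjusted p covers both. A neutrophil marker list held S100a8, S100a9, Ngp, Camp, Ltf, Elane, Mpo and Csf3r. It summed to 13.5 to 26.6 CPM in WT skin, 14.8 to 47.8 in HET skin and 20.8 to 92.9 in KO skin. The paper counts human S100A8 among genes that keratinocytes raise in response to IL-17, so the sum is not a measure of neutrophils alone. The part of this list in the results was not tested.

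On mouse chromosome 3 the genes are ordered Crnn, Flg2, Flg, Hrnr, Rptn, Tchh and Tchhl1, all on the plus strand and with no other protein-coding gene between them (GENCODE vM21). Exons of Rptn share 45 of 4146 bases with an unverified gene model on the same strand, and no other annotated gene shares exon bases with a member. The RefSeq promoter table of GRCm38.p6 held 1 promoter for each of the 6 members. The stretches before the start sites of Rptn, the member that rose, and of Flg and Hrnr, the most abundant members, are shown with 3 motifs in capitals: TGANTCA, AACCNGTT and TATAAA. All were searched on both strands and were chosen after the sequences had been seen. The Rptn stretch is chr3:93393449-93393698, the Flg stretch chr3:93273296-93273545 and the Hrnr stretch chr3:93319499-93319748, each on the plus strand.
Rptn: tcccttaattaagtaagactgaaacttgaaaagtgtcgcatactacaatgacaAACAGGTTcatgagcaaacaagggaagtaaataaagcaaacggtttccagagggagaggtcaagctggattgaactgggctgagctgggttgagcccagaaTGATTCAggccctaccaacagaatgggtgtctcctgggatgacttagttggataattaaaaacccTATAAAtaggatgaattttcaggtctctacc
Flg: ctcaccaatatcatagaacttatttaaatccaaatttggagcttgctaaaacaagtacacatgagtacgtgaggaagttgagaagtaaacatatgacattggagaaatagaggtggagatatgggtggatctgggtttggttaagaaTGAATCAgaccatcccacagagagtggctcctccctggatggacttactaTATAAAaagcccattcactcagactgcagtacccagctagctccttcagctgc
Hrnr: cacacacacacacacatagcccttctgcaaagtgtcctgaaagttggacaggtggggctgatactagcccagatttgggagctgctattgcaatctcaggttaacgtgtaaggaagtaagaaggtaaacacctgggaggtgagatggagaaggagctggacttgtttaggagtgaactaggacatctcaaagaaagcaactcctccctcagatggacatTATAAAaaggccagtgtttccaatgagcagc

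TGANTCA occurred in the promoters of 5 of the 6 members, against 7.81% of the 32851 promoters of the same length in the table. The motifs were chosen after these sequences had been seen, so the shares given here and below are a description and not a test. The variable base was A or T in each match, so none was TGACTCA or TGAGTCA, the usual AP-1 site. The forms TGAATCA and TGATTCA were in 2.81% of all promoters. The matches lay 69 to 103 bases before the start site, and the 27-base windows around them are shown with the match in capitals to compare their flanks.
Flg: tggttaagaaTGAATCAgaccatccca
Flg2: tgattagaaaTGAATCAgcccatccca
Rptn: gagcccagaaTGATTCAggccctacca
Tchhl1: ttggtggtgaTGAATCAggtcattaca
Crnn: aagccttggaTGAATCAagcctgcttg

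The Flg and Flg2 windows were identical at 23 of 27 bases, motif included. The other pairs shared 11 to 18 bases. Hrnr had no TGANTCA match in its promoter. The AACCNGTT motif, the letters read by grainyhead-like factors, was in the Rptn promoter as AACAGGTT, 197 bases before the start, in no other member and in 2.09% of all promoters. TATAAA stood 29 to 53 bases before the start of Flg, Hrnr, Rptn and Crnn and in 13.6% of all promoters. A match describes these letters and is not evidence that a factor bound there.

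The coding repeats bear on how reads can be counted. In the longest annotated transcript, 79.2% of 50-base windows occurred more than once in Flg, 69.1% in Hrnr and 65.3% in Flg2, against 5.49% in Rptn and 0 in Crnn and Tchhl1. The most repeated window of each repeat-rich gene is shown to make this visible. It had 17 copies in Flg, 55 in Flg2 and 16 in Hrnr.
Flg: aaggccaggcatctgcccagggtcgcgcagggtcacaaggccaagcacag
Flg2: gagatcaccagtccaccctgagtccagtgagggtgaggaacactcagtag
Hrnr: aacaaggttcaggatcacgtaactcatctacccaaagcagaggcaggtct

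No 50-base window of the longest transcripts was shared between members, so a read of that length from one does not match another exactly. Near matches and other read lengths were not examined. Whether reads that match several places within a gene were counted is not given in the sources used here, so the levels of Flg, Flg2 and Hrnr against other genes are uncertain, while comparisons of 1 gene across genotypes are made on the same windows.

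Levels between members were compared per kilobase of exon. In WT skin Hrnr was highest at 235 ± 51 CPM per kb, followed by Flg at 61.9 ± 12.3 and Flg2 at 24 ± 1.85 CPM per kb (SD, n = 5). Rptn was at 3.1 ± 1.67 CPM per kb and Crnn at 1.82 ± 0.824, with overlapping spreads between samples. Tchhl1 was lowest at 0.0174 ± 0.0191 CPM per kb. The order was the same when only windows found once in the transcript were counted as length, with Hrnr at 764, Flg at 388, Flg2 at 69.3, Rptn at 3.32 and Crnn at 1.87 CPM per kb. In KO skin Rptn reached 32.8 ± 18.7 CPM per kb of exon and overlapped Flg2 at 24.8 ± 14.9. On unique windows Rptn was at 35.1 ± 20 and Flg2 at 71.8 ± 43.1 CPM per kb in KO, still overlapping within 1 SD.

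KO skin was first set against WT skin, to see which members respond when desmoglein 1, the desmosomal cadherin of the upper epidermal layers, is lost. Rptn was at 19, 19.2, 15.2, 6.08 and 4.94 CPM in WT replicates 1 to 5 and at 116, 241, 29.5, 170 and 124 CPM in KO replicates 1 to 5. All 5 KO samples lay above all WT samples, but KO replicate 3 was far below the other KO samples and the closest to WT. Rptn was 3.40 higher on the log2 scale in KO (SE 0.54, edgeR quasi-likelihood test, adjusted p = 0.0231). It was the 1 member of 5 tested that was called, which took an adjusted p no higher than 0.1 together with a log2 fold change of at least 1 in either direction. Of all genes 0.135% were called higher and 0.187% lower. Likewise it was the 1 member whose groups did not overlap, where 1.61% of all genes lay higher and 1.76% lower in this way. Of all tested genes, 7 had a higher log2 fold change than Rptn and 18 a smaller p.

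**Figure D1:**
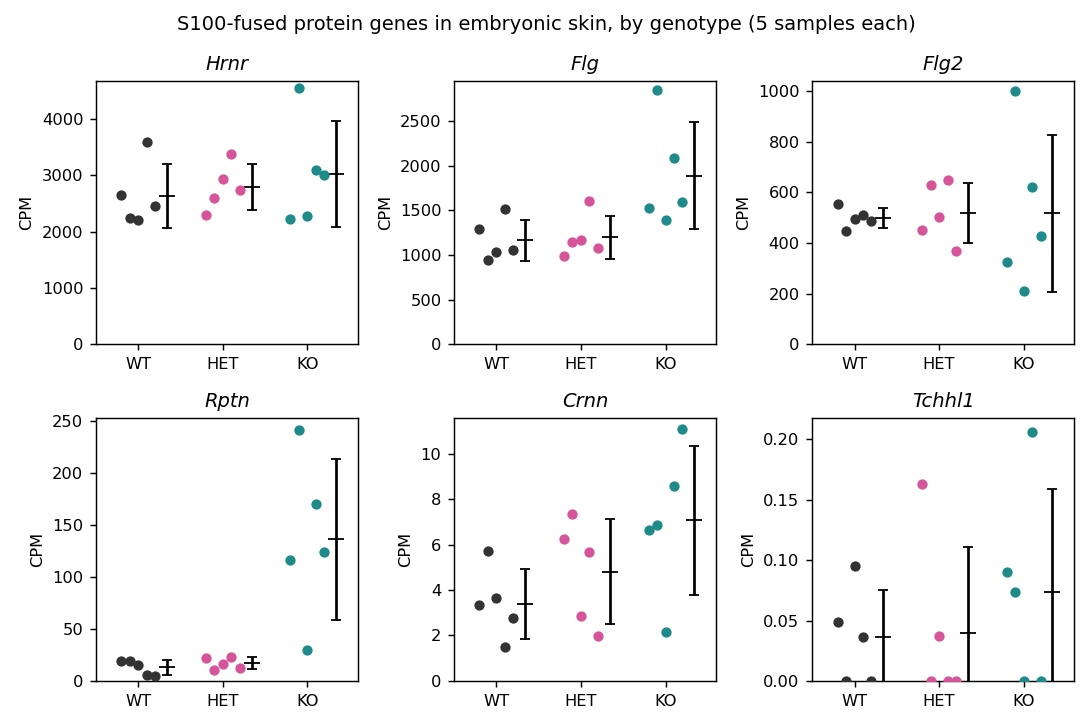
CPM of the 6 members (vertical axes, from 0) in the 5 samples of each genotype, replicates 1 to 5 from left to right, with the mean and SD beside them as a dash and bars. The Rptn samples of KO lie at 29.5 to 241 CPM, all above WT and HET, while the genotypes overlap in every other panel.

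The difference in Rptn was 3.59 without WT replicate 2 (edgeR adjusted p = 0.0663), 3.28 with its libraries kept apart (adjusted p = 0.00978) and 3.31 without KO replicate 4 (adjusted p = 0.0605). The libraries of WT replicate 2 were at 24.8 and 14.7 CPM of Rptn, and the lower KO replicate 3 library was at 28.9 CPM. The titles come in 2 formats, called series 1 and 2 here. In series 1 alone, with 3 samples per genotype, the log2 difference was 3.07 (edgeR adjusted p = 0.551), and in series 2 alone it was 3.48 (adjusted p = 0.0173). The call was also lost when WT and KO were fitted without HET (3.40, adjusted p = 0.115) and with the summed Krt5, Krt14, Krt1 and Krt10 level as a covariate (3.49, adjusted p = 0.108).

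Markers of other places where repetin is made were set beside it. The inner root sheath list, summed over 7 genes, was at 298, 312, 318, 79.7 and 134 CPM in WT replicates 1 to 5 and at 371, 136, 85.2, 334 and 334 CPM in KO. In WT the 3 samples with the most of this list also had the most Rptn. In KO, replicates 1, 4 and 5 lay above the highest WT sample, replicate 3 was lowest in both, and replicate 2, with the most Rptn, was at 136 CPM. The HET samples ran from 75.9 to 554 CPM of the list without reaching the Rptn level of any KO sample. The periderm list was at 399.6 CPM in KO replicate 4, the KO sample with the second most Rptn, and at 11.1 to 17.1 CPM in the other KO samples. The part of these cells in the Rptn result was not tested. KO replicate 3, with the least Rptn of the KO samples, had the most summed erythroid marker RNA of all samples, 8987 CPM against 1645 to 6037 CPM outside KO. Its part in the Rptn level was not tested.

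Flg, the source of filaggrin, was at 1286, 944, 1032, 1510 and 1052 CPM in WT replicates 1 to 5 and at 1520, 2851, 1391, 2080 and 1588 CPM in KO. In 4 of the 5 KO samples Flg was above every WT sample, and KO replicate 3 lay within the WT range. The log2 difference was 0.70 (SE 0.19, edgeR adjusted p = 0.107), just outside the p threshold and under the fold limit. The adjusted p of Flg was 0.0217 in DESeq2, 0.21 in edgeR with no filter on low counts and 0.551 in series 1 alone. In edgeR it was 0.0967 in series 2 alone and 0.0195 with summed muscle markers as a covariate. With a sample left out the edgeR value was 0.0524 to 0.23. The log2 difference was 0.63 without WT replicate 2 (edgeR adjusted p = 0.23) and 0.66 without KO replicate 4 (adjusted p = 0.228). The edgeR adjusted p was 0.00564 when the 24 libraries were counted as separate samples, although 9 title numbers occur in 2 of them. After rounding, 11 of 29 alternative fits had an adjusted p of 0.1 or below. The log2 difference was 0.42 to 0.81 in 29 alternative fits, lowest with the keratinocyte covariate described above (edgeR adjusted p = 0.414).

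Hrnr, the most abundant member, was at 2204 to 3601 CPM in WT (median 2454) and 2229 to 4554 CPM in KO (median 3014). Its log2 difference was 0.21 (SE 0.19, edgeR adjusted p = 0.554), and only KO replicate 2 lay above the WT range. The Hrnr difference was 0.01 without KO replicate 2 (edgeR adjusted p = 0.976) and 0.35 without WT replicate 4 (adjusted p = 0.264). Flg2 was at 555, 449, 495, 509.6 and 485 CPM in WT and at 325, 1000.2, 209, 620.3 and 429 CPM in KO. The WT samples were close together, whereas the KO samples lay on both sides of them, 3 below and 2 above. The coefficient of variation of Flg2 was 7.71% in WT, 22.9% in HET and 60.0% in KO, and its mean differed by a log2 of 0.05 (SE 0.31, edgeR adjusted p = 0.941). This difference was -0.33 without KO replicate 2 (edgeR adjusted p = 0.477) and 0.25 without KO replicate 3 (adjusted p = 0.582).

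Cornulin RNA was at 3.35, 5.71, 3.67, 1.49 and 2.77 CPM in WT replicates 1 to 5 and at 6.64, 6.86, 2.17, 8.58 and 11.1 CPM in KO. In 4 of 5 KO samples Crnn exceeded every WT sample, while KO replicate 3 did not. The log2 difference of 1.04 (SE 0.43) had an edgeR adjusted p of 0.213 and was not called. In DESeq2 it was called, with 1.07 and an adjusted p of 0.0989. The value was 1.32 without WT replicate 2 (edgeR adjusted p = 0.235) and 0.96 without KO replicate 4 (adjusted p = 0.371). It was 0.55 in series 1 alone (edgeR adjusted p = 0.799) and 1.05 in series 2 alone (adjusted p = 0.192).

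Tchhl1 had 0 to 3 counts per sample in WT, 0 to 5 in HET and 0 to 4 in KO, with 5, 6 and 9 counts in all. A count of 0 allows up to 3 counts, or 0.0869 to 0.195 CPM depending on the sample, and this limit is for counting error alone, as the libraries carried no molecular identifiers and their reads may be copies of one molecule. No difference was detectable at this depth, with two-sided exact permutation p-values of 0.468 for KO against WT, 0.921 for HET against WT and 0.484 for KO against HET. Trichohyalin (Tchh), the family gene between Rptn and Tchhl1 that is not on the list, was at 39.7 ± 10.8 CPM in WT and 52.1 ± 22.2 CPM in KO (SD, n = 5). Its log2 difference was 0.39 (SE 0.39, edgeR adjusted p = 0.591), so the gene next to Rptn was not called.

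The comparison of KO with HET shared the KO samples with the one above and asked whether 1 remaining copy of the cluster was enough to set HET apart from KO. Rptn was at 22.4, 10.6, 16.1, 23 and 12.5 CPM in HET replicates 1 to 5, all below the lowest KO sample. It was the 1 member called, 3.01 higher in KO (SE 0.53, edgeR adjusted p = 0.0572), where 0.0819% of all genes were called higher and 0.0995% lower. Non-overlapping groups were found for 0.954% of all genes in this direction and 1.3% in the other. The call was the less stable of the pair: leaving out HET replicate 1, 2, 3 or 5 or KO replicate 1 or 4 raised the edgeR adjusted p to 0.102 to 0.155. The Flg difference was 0.66 (SE 0.19, edgeR adjusted p = 0.163), that of Crnn 0.55 (SE 0.43, adjusted p = 0.549), that of Hrnr 0.12 (SE 0.19, adjusted p = 0.787) and that of Flg2 -0.01 (SE 0.31, adjusted p = 0.995).

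The comparison of HET with WT asked what the loss of 1 copy does. No member was called by edgeR, where the share of all genes called was 0% in each direction and 1.58% of genes had an unadjusted p below 0.05. None of the 5 tested members had such a p, and none was called by DESeq2 or limma-voom. Flg was at 988, 1141, 1168, 1605 and 1080 CPM in HET replicates 1 to 5, within 1 SD of WT in the mean (1196 ± 239 against 1165 ± 231 CPM, n = 5 each). Flg2 was at 368 to 648 CPM, Hrnr at 2300.3 to 3385 CPM and Crnn at 1.96 to 7.33 CPM in HET, and each of these ranges overlapped WT. The log2 differences were 0.04 for Flg, 0.06 for Flg2, 0.09 for Hrnr, 0.38 for Rptn and 0.50 for Crnn, with SEs of 0.19, 0.31, 0.19, 0.51 and 0.43 and an edgeR adjusted p of 1 each.

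**Figure D2:**
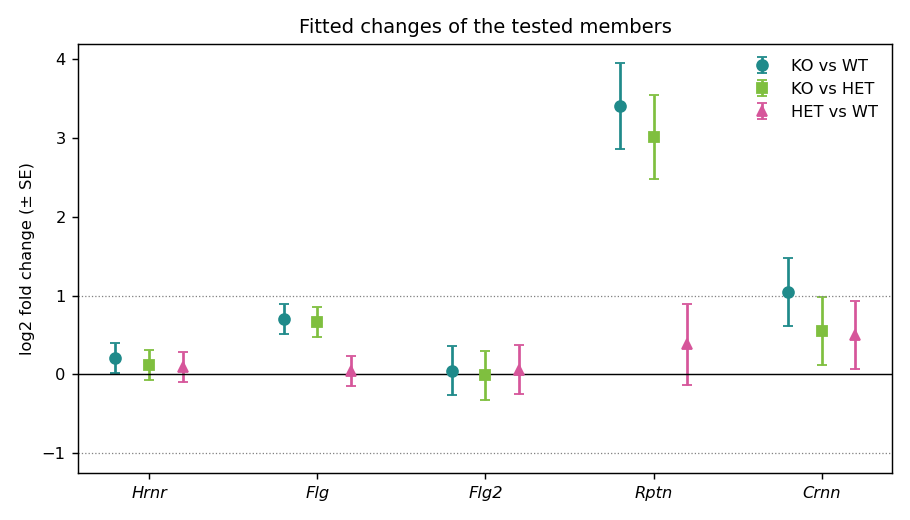
Fitted log2 fold change (vertical axis) with its SE as bars for the 5 tested members in the 3 comparisons, with dotted lines at the fold limit of 1 either way. Rptn stands at 3.40 and 3.01 in the KO comparisons and at 0.38 in HET against WT, while Flg is at 0.70 and 0.66 and Hrnr and Flg2 lie near 0.

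Each member was also set against Flg in the same sample, to test whether members of the family responded unequally. The ratio of Hrnr to Flg CPM was 2.06, 2.38, 2.14, 2.38 and 2.33 in WT replicates 1 to 5 and 1.47, 1.6, 1.63, 1.49 and 1.9 in KO. Every KO sample was below every WT sample, and the mean fell from 2.26 ± 0.151 to 1.62 ± 0.172 (SD, n = 5). On the log2 scale with a pseudocount of 1 CPM the difference was -0.49 (two-sided exact permutation p = 0.00794, the smallest that arrangements of 5 against 5 samples can give, adjusted p = 0.0397 over 15 tests). HET samples had Hrnr to Flg ratios of 2.11 to 2.54 and also lay apart from KO, by -0.55 (exact permutation p = 0.00794, adjusted p = 0.0397).

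The Flg2 to Flg ratio fell from 0.437 ± 0.0588 in WT to 0.257 ± 0.0774 in KO, a log2 difference of -0.81 (exact permutation p = 0.0159, adjusted p = 0.0397). KO replicate 2 at 0.351 lay above WT replicate 4 at 0.337, and no other KO and WT samples overlapped. The difference from HET was -0.80 with the same p-values, and KO replicate 2 also lay above HET replicate 5 at 0.34. The Rptn to Flg ratio was 0.0117 ± 0.00708 in WT, 0.0143 ± 0.00507 in HET and 0.0684 ± 0.0266 in KO, a log2 difference of 2.54 from WT (exact permutation p = 0.00794, adjusted p = 0.0397) and of 2.09 from HET (exact permutation p = 0.0159, adjusted p = 0.0397). In 4 KO samples this ratio was 0.0766 to 0.0844, and in KO replicate 3 it was 0.0212, next to the highest WT value of 0.0203 and under the highest HET value of 0.0226.

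For Crnn the ratio to Flg differed by 0.16 between KO and WT (exact permutation p = 0.738, adjusted p = 0.852). The ratio of Tchhl1 to Flg followed the pseudocount, at -0.61 with 1 CPM and -0.39 with 0.1 CPM, and is not read as a difference. No ratio differed between HET and WT, where the smallest exact permutation p was 0.365. The Hrnr, Flg2 and Rptn differences in KO kept their direction and an adjusted p of 0.0595 or below when any 1 sample was left out, WT replicate 2 and KO replicate 4 included. These ratios share Flg as denominator, so they are not independent of each other.

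As shares of the 6 members' summed CPM, Flg made up 27 ± 1.08% in WT (25.8 to 28.5%), 26.3 ± 1.19% in HET and 34.1 ± 2.23% in KO (30.7 to 36.2%). Hrnr made up 60.8 ± 2.19% in WT and 54.8 ± 3.18% in KO, and Flg2 11.8 ± 1.58% and 8.67 ± 2.41%. The sum itself was 4310.3 ± 807 CPM in WT skin, 4532 ± 709 CPM with 1 copy and 5579 ± 1904 CPM with none, with overlapping ranges.

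**Figure D3:**
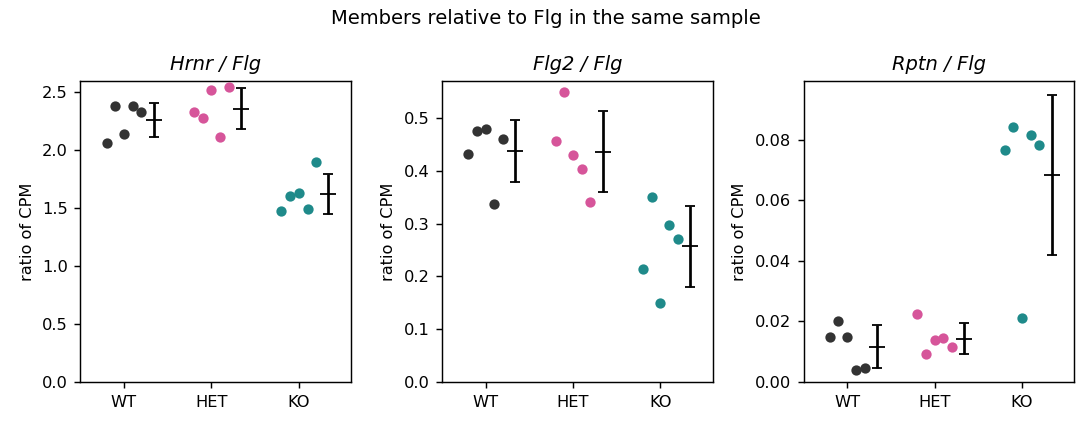
Ratio of Hrnr, Flg2 and Rptn CPM to Flg CPM (vertical axes, from 0) in the 5 samples of each genotype, replicates 1 to 5 from left to right, with mean and SD. The Hrnr ratio lies at 1.47 to 1.9 in KO and 2.06 to 2.38 in WT, and the lone low KO point of Rptn is replicate 3 at 0.0212.

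Libraries of the same title number gave close levels for the abundant members. For the 9 title numbers present in both series, the ratio of the series 1 to the series 2 level was 0.97 to 1.03 for Flg, 0.96 to 1.06 for Flg2 and 0.94 to 0.98 for Hrnr. For Crnn, with 11 to 125 counts per library in these numbers, it was 0.71 to 1.46. For Rptn the ratio was 0.91 to 1.69, the highest being WT replicate 2, whose libraries also went against each other in sex genes.

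**Figure D4:**
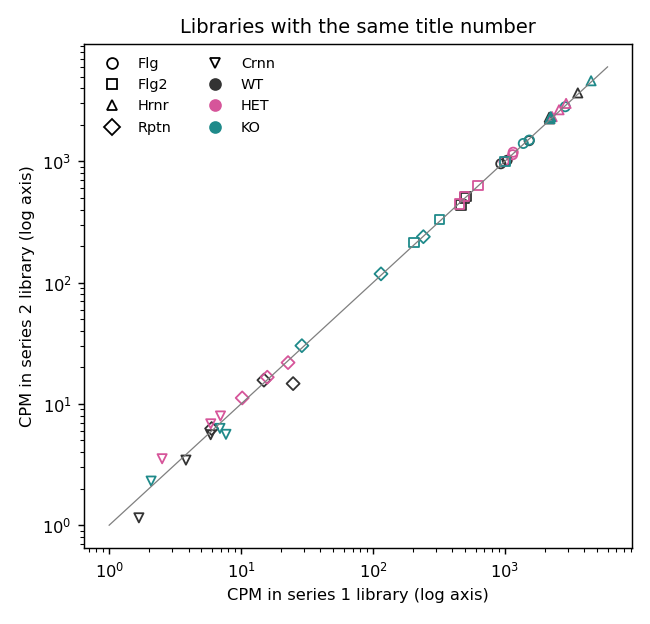
Level of the 5 tested members in the series 1 library (horizontal, log axis, CPM) and the series 2 library (vertical, log axis, CPM) of the same title number, with symbols for genes, colours for genotypes and a line of equality. Points lie near the line except low Crnn values and the Rptn point of WT replicate 2, at 24.8 and 14.7 CPM.

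Within genotypes the abundant members went up and down together. The correlation of deviations from the genotype means on log2(CPM + 1), given as a description over 15 samples that share libraries and scaling, was 0.93 for Flg and Hrnr, 0.81 for Flg and Flg2 and 0.75 for Flg2 and Hrnr. On these deviations Rptn was at 0.66 with Flg2, 0.66 with Crnn, 0.61 with Tchh and 0.40 with Flg. With the genotype means left in, Rptn was at 0.18 with Flg2, 0.70 with Crnn, 0.47 with Tchh and 0.76 with Flg. On the deviations Crnn was at 0.81 with Tchh and at -0.03 with Hrnr. In WT skin Rptn was highest in replicate 2, where Flg and Flg2 were lowest. In HET skin Flg, Flg2 and Rptn were all highest in replicate 4. In KO skin Flg, Flg2 and Rptn had the same order of samples, replicate 3 lowest, then 1, 5, 4 and 2. The summed granular layer markers Lor, Ivl, Tgm3, Asprv1, Casp14 and Cdsn were also lowest in KO replicate 3, at 7671 CPM, and highest in KO replicate 2, at 19610 CPM, against 9545 to 13232 CPM in WT. Their part in the spread of the members was not tested.

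By the correlation of deviations the genes most like Flg were Fchsd2 (0.94), Hrnr (0.93) and Csnk2a2 (0.92). Those most like Hrnr were Flg (0.93), Csnk2a2 (0.92) and Cgn (0.91). Flg2 was nearest to Kprp (0.98), a keratinocyte proline-rich protein gene of the same complex, Acpp (0.98) and Lce1c (0.97), a late cornified envelope gene. Crnn was nearest to Prr9 (0.92), RP24-374G16.5 (0.90) and Serpinb11 (0.90). The genes nearest to Rptn, RP23-149D11.8 (0.89), RP23-386F15.3 (0.87) and Psma8 (0.86), had mean levels of 0.334 to 0.476 CPM, so these correlations rest on few counts.

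Genes related to the members were described by lists. Of 14 genes linked to the processing of profilaggrin and its products, none was called in KO against WT. None had an edgeR adjusted p of 0.1 or below, where 0.614% of all genes did so higher and 0.538% lower. The median log2 fold change of the 14 was 0.23, beside -0.01 over all genes tested, and 9 were positive and 5 negative. The smallest p belonged to Blmh, the bleomycin hydrolase that breaks filaggrin down to amino acids, at 0.47 (SE 0.14, edgeR adjusted p = 0.11). Padi1, a deiminase, had a difference of 0.51 (adjusted p = 0.17) and Casp14, the caspase of the cornifying layer, one of 0.49 (adjusted p = 0.175).

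Of 10 cornified envelope and cross-linking genes none was called and 1 had an adjusted p of 0.1 or below, where 0.614% of all genes did so in the higher direction. This was Ivl, the envelope precursor involucrin, which rose from 509.8 ± 38.5 CPM in WT to 866 ± 207 CPM in KO (SD, n = 5, log2 fold change 0.76, SE 0.13, edgeR adjusted p = 0.0231), under the fold limit. In HET Ivl was at 648 ± 45.5 CPM (601 to 722), above all WT samples (482 to 576), where 0.14% of all genes lay higher without overlap. The difference was 0.35 (edgeR adjusted p = 1, unadjusted p = 0.0187), and KO against HET was 0.42 (edgeR adjusted p = 0.178). The transglutaminases Tgm5 (0.52, edgeR adjusted p = 0.102) and Tgm1 (0.41, adjusted p = 0.169) came next by p. All 10 differences were positive, with a median of 0.39. Krtdap and Sbsn are also in the spinous list, whose sum was higher in KO, and the part of that sum in the values of the members and the 3 lists was not tested beyond the keratinocyte covariate for the members.

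Of 17 regulators none was called and 1 passed by adjusted p alone in KO against WT, where 0.614% of all genes did so in the higher direction. Grhl3, a grainyhead-like transcription factor of the differentiating epidermis, rose from 54.5 ± 3.46 CPM in WT to 92.4 ± 18 CPM in KO (log2 fold change 0.76, SE 0.13, edgeR adjusted p = 0.0184). It was at 59.7 ± 8.83 CPM in HET, and KO exceeded HET by 0.63 (SE 0.13, edgeR adjusted p = 0.0733), where 0.146% of all genes passed by adjusted p in that direction. Ovol1, a zinc finger repressor, differed by 0.51 (edgeR adjusted p = 0.102) and Ahr, the aryl hydrocarbon receptor, by -0.33 (adjusted p = 0.13). The median of the 17 was 0.29, with 14 positive and 3 negative. In HET against WT no gene of the 3 lists had an adjusted p of 0.1 or below, and the lists' medians were -0.04, -0.05 and -0.04, beside 0.00 over all genes.

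**Figure D5:**
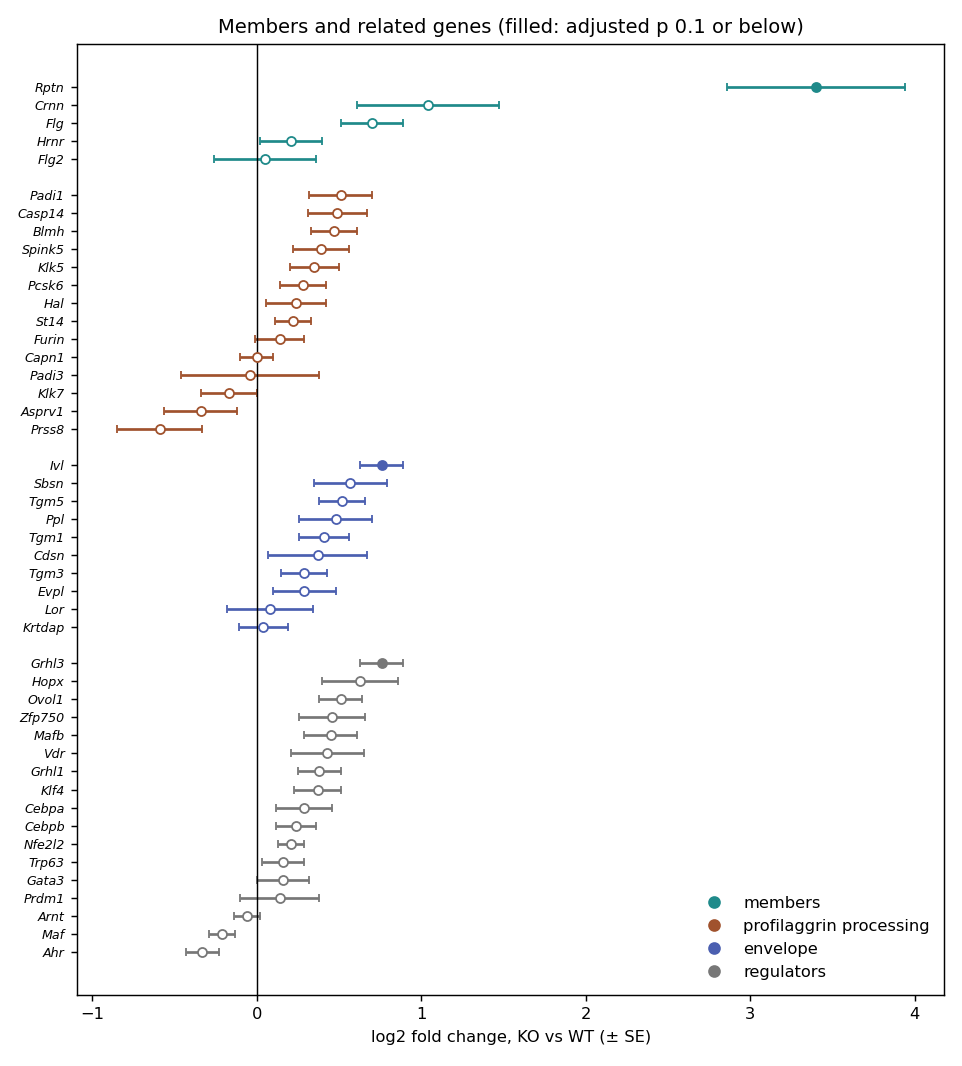
Fitted log2 fold change of KO against WT (horizontal axis) with its SE as bars for the 5 tested members and the genes of the 3 lists, filled where the adjusted p is 0.1 or below. Rptn at 3.40, Ivl at 0.76 and Grhl3 at 0.76 are filled, and Rptn lies beyond every listed gene.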

How the data were processed

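Skin RNA of WT, HET and KO embryos was measured in 24 strand-preserving poly(A) libraries. The deposited table holds raw counts, whole numbers of reads per gene symbol made by the authors, with 1 column per library. The submitters' processing notes name STAR, HTSeq and hg19. As hg19 is a human build and the symbols are mouse, the build, annotation and use of strand were not settled here, so gene order and lengths were taken from GENCODE vM21 on GRCm38 and promoters from RefSeq on GRCm38.p6. Libraries of the same title number and genotype were summed into 15 samples (9 numbers had 2 libraries). The filterByExpr function chose the genes, TMM factors scaled the libraries, and edgeR (version 4.0.16, R 4.3.3) ran its quasi-likelihood test with robust estimates, a joint fit of the 3 genotypes and Benjamini-Hochberg adjustment over 17094 genes. The thresholds were an adjusted p of 0.1 and an absolute log2 fold change of 1, as in the study. Ratios to Flg and the level of Tchhl1 were compared by two-sided exact permutation tests on log2(CPM + 1). The scripts were tested on simulated data. DESeq2 1.42.0 and limma 3.58.1 served as alternatives, beside other scaling, filters, covariates, each series alone and each sample left out.

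The members, the marker lists and the related lists were chosen with earlier results of these data known. Named genes were the 6 members, Tchh, the 3 genes most like each tested member, and listed genes with an adjusted p of 0.1 or below or among the 3 smallest p of their list in KO against WT. Depth was 8.98 to 20.96 M counts (M, mega) per library.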

Additional observations from a re-analysis of the deposited data

Results flagged for a closer look

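Of 30 sets of 5 samples examined (the CPM of 6 members and the ratio of 4 members to Flg in each genotype), 2 held a sample whose gap to its nearest neighbour was more than 0.71 of the whole range, where chance gives about 1 in 20. The Rptn to Flg ratio of KO replicate 3, at 0.0212, was the lowest of the KO samples with a gap of 0.877 of the range. The Tchhl1 level of HET replicate 1, at 0.163 CPM, was the highest of the HET samples with a gap of 0.774 of the range, and it stands for 5 counts.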

How the results depend on the processing

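No paired analysis was possible because no title number occurs in more than 1 genotype. Of 933 values recomputed under the alternatives, 857 kept their direction and their side of the threshold. The number of members called higher in KO than WT was 1, and it became 2 in DESeq2, where Crnn was added at 1.07 (adjusted p = 0.0989), and 0 in 3 fits: series 1 alone (Rptn 3.07), only the 2 genotypes (3.40) and the keratinocyte covariate of summed Krt5, Krt14, Krt1 and Krt10 (3.49), which was chosen after the data had been seen. The number called higher in KO than HET became 0 under the same 3 changes (Rptn 2.96, 3.01 and 3.11) and at an adjusted p limit of 0.05 (3.01). With 1 sample left out it was 0 to 1, and the Rptn difference was 2.70 to 3.27. Leaving out a sample kept Rptn called in KO against WT, at 3.09 to 3.66 (edgeR adjusted p up to 0.0818, without WT replicate 3). Series 1 alone has 9 samples. The cause of the lost calls was not tested in any of these fits.

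The sign of uncalled differences near 0 turned in several fits. Flg2 in KO against WT was -0.15 in limma-voom, -0.23 with the muscle covariate and -0.40 with the keratinocyte covariate, and -0.33 to 0.25 with a sample left out. Flg2 in KO against HET was 0.01 with RLE factors, in DESeq2 and with no filter, and -0.39 to 0.19 with a sample left out. Hrnr against WT was 0.01 to 0.35 with a sample left out. With the keratinocyte covariate it was -0.04 against WT and -0.18 against HET, and -0.08 to 0.21 against HET with a sample left out. In HET against WT, Flg was -0.09 and Hrnr -0.02 in series 1 alone, Flg -0.01 with 24 separate libraries, and with a sample left out Flg was -0.09 to 0.15 and Flg2 -0.04 to 0.16. The Tchhl1 level there was -0.03 with a pseudocount of 0.1 CPM and in series 2 alone, and -0.04 to 0.02 with a sample left out.

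The Hrnr, Flg2 and Rptn ratios to Flg in KO kept direction and threshold in all 18 alternatives. The ratio of Tchhl1 to Flg was -0.39 from WT and -0.33 from HET with a pseudocount of 0.1 CPM and no longer passed; with a sample left out it was -0.71 to -0.45 from WT, -0.70 to -0.42 from HET, and -0.14 to 0.09 for HET against WT. With a sample left out, the Flg2 ratio for HET against WT was -0.10 to 0.08, and the Crnn ratio was -0.13 to 0.40 for KO against WT and -0.40 to 0.04 for KO against HET. Over all genes in KO against WT, edgeR called 23 higher and 32 lower, DESeq2 99 and 91, and limma-voom 24 and 76. Depth limits Tchhl1. Crnn had 41 to 233 counts per sample, with a coefficient of variation of 45.2% in WT, 47.6% in HET and 46.2% in KO. The part of depth in the Crnn result was not tested.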
